A study of Mus musculus with 18 samples.

Results

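Molecular chaperones and folding enzymes were followed here in mouse embryos that carry 0, 1 or 2 mutant copies of Nkx2-5. The members were taken by symbol: every gene starting with Hspa, Hspb, Hspd, Hspe, Hsph, Hsp90, Dnaj, Fkbp or Pdia, every Cct gene with a digit, every Ppi gene with 1 further letter, and Tcp1, Canx, Serpinh1 and Hsf1. A probe set, a group of oligonucleotide probes read as 1 value, counted when the annotation gave it a single symbol. That took in 59 genes on 77 probe sets, out of 6137 singly annotated genes on the arrays. Of these, 37 genes act in the cytosol or nucleus, 7 in mitochondria and 15 in the endoplasmic reticulum (ER). One gene that the Hspa prefix would take was left out and is not analysed here.

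Chaperones bind unfolded stretches of other proteins and keep them from clumping until they fold. Hsp70 proteins cycle with ATP, J-domain proteins bring them their clients and start the cycle, and Hsp110 proteins release the spent nucleotide. Hsp90 finishes the folding of kinases and steroid receptors, chaperonins enclose a client in a barrel, and peptidyl-prolyl and disulfide isomerases catalyse slow steps of folding. Heat shock factor 1 drives the cytosolic genes under heat or other protein damage, and a separate unfolded protein response drives those of the ER. In an early embryo many of these genes are active without stress, since growing tissue makes much new actin, tubulin and collagen.

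Total RNA came from the middle part of embryos at embryonic day 9.5, cut into 3, and was measured on 2 array types, a and b, which carry different probe sets. The genotypes were homozygous mutant, heterozygous and wild type for Nkx2-5 (Csx), a homeobox gene that acts early in heart formation, with 3 arrays of each genotype on each type. In what follows the values of a genotype stand in the order of the replicate numbers in the labels: homozygous mutant 2, 6 and a last array (8 among the type a arrays and 9 among those of type b, called 8a and 9b), heterozygous 3, 4 and 8, and wild type 1, 5 and 7. The labels describe neither the mutant allele nor the strain, and leave unsaid if single embryos or pools were used, if litters were shared, and if 8a and 9b hold the same RNA. No probe set was annotated to Nkx2-5 alone, so the genotypes could not be checked through the gene itself. The p-values thus rest on the spread among these arrays alone, and that spread may be technical. The tissue is a mixture, and in it fewer cells of a type and less RNA per cell cannot be told apart.

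The deposited value is an intensity on a linear scale after background subtraction. The test took the probe sets that were above a noise floor (375.1 on type a, 523.1 on type b) on 3 or more of 9 arrays, which 6935 probe sets for 3909 named genes did. Between 54.5% and 57.8% of probe sets on type a and between 38.6% and 44% on type b were above the floor. Markers of heart muscle (5 of 7 listed), primitive red cells (4 of 4), neural tube (4 of 4), liver bud or visceral endoderm (4 of 4), gut or surface epithelium (3 of 4) and mesenchyme (4 of 4) were bright enough to be tested. The summed intensity of 4 neural tube genes was 4262 to 7368 in homozygous mutant arrays, 11010 to 11260 in heterozygous and 8170 to 13580 in wild type arrays. For 3 keratin genes of simple epithelium it was 11350 to 20040 in homozygous mutant, 7006 to 8150 in heterozygous and 6056 to 7855 in wild type arrays. Homozygous mutant arrays 8a and 9b had a 3′ to 5′ signal ratio of actin of 2.5 and 2.28, against 0.967 to 1.41 and 0.849 to 1.4 on the other arrays of types a and b, a sign of shorter RNA. The part of these shifts in the chaperone values was not tested.

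Of the 59 genes, 52 had a tested probe set (67 probe sets), 32 of them cytosolic or nuclear, 7 mitochondrial and 13 of the ER. No member passed an adjusted p of 0.05 in limma in any of the 3 genotype comparisons. Over all tested probe sets 0.692% passed between homozygous mutant and wild type, 0% between heterozygous and wild type, and 1.15% between homozygous mutant and heterozygous. At an unadjusted p under 0.05 there were 6 member probe sets of 67 (8.96%) between homozygous mutant and wild type, all lower in the mutant, against 11.2% of all tested probe sets (5.48% lower and 5.72% higher). Between heterozygous and wild type there were 0 of 67, against 1.7%. Homozygous mutant against heterozygous gave 8 (11.9%), 6 lower (8.96%, against 8.51% of all) and 2 higher (2.99%, against 7.21%), together against 15.7%. With both directions together, the shares of members past the unadjusted threshold were thus below those of all probe sets in each comparison. By direction, the share lower in the mutant was above that of all probe sets (8.96% against 5.48% from wild type, 8.96% against 8.51% from heterozygous). The share higher in the mutant was below it (0% against 5.72%, and 2.99% against 7.21%). By gene, 6 of 52 (11.5%) passed between homozygous mutant and wild type, the same share as of all tested genes (11.5%).

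Taking for each gene its probe set of highest mean level, the median log2 difference of the 52 genes between homozygous mutant and wild type was -0.0845, with 16 genes above 0 and 36 below. Over all 3909 tested genes that median was -0.0349, with 1781 above and 2128 below. Between heterozygous and wild type the members' median was -0.0016, with 26 genes on each side of 0, and that of all genes 0.0194. Homozygous mutant minus heterozygous gave -0.0504, with 19 above and 33 below, and that of all genes -0.0689. The comparisons share arrays, so they are not independent of each other. By compartment, the medians for homozygous mutant minus wild type were -0.0845 in the cytosol and nucleus (9 above 0, 23 below), -0.1062 in mitochondria (3 and 4) and -0.0623 in the ER (4 and 9). The ER median was 0.1025 without mutant 8a and 9b, and the mitochondrial median 0.0339 without mutant 2, so these signs rested on single replicates. For 45 of the 52 genes (86.5%) the 95% interval of this difference lay within a 2-fold change in either direction, against 74.4% of all genes. For heterozygous minus wild type it did so for 47 of 52 (90.4%, against 84.2%).

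**Figure D1:**
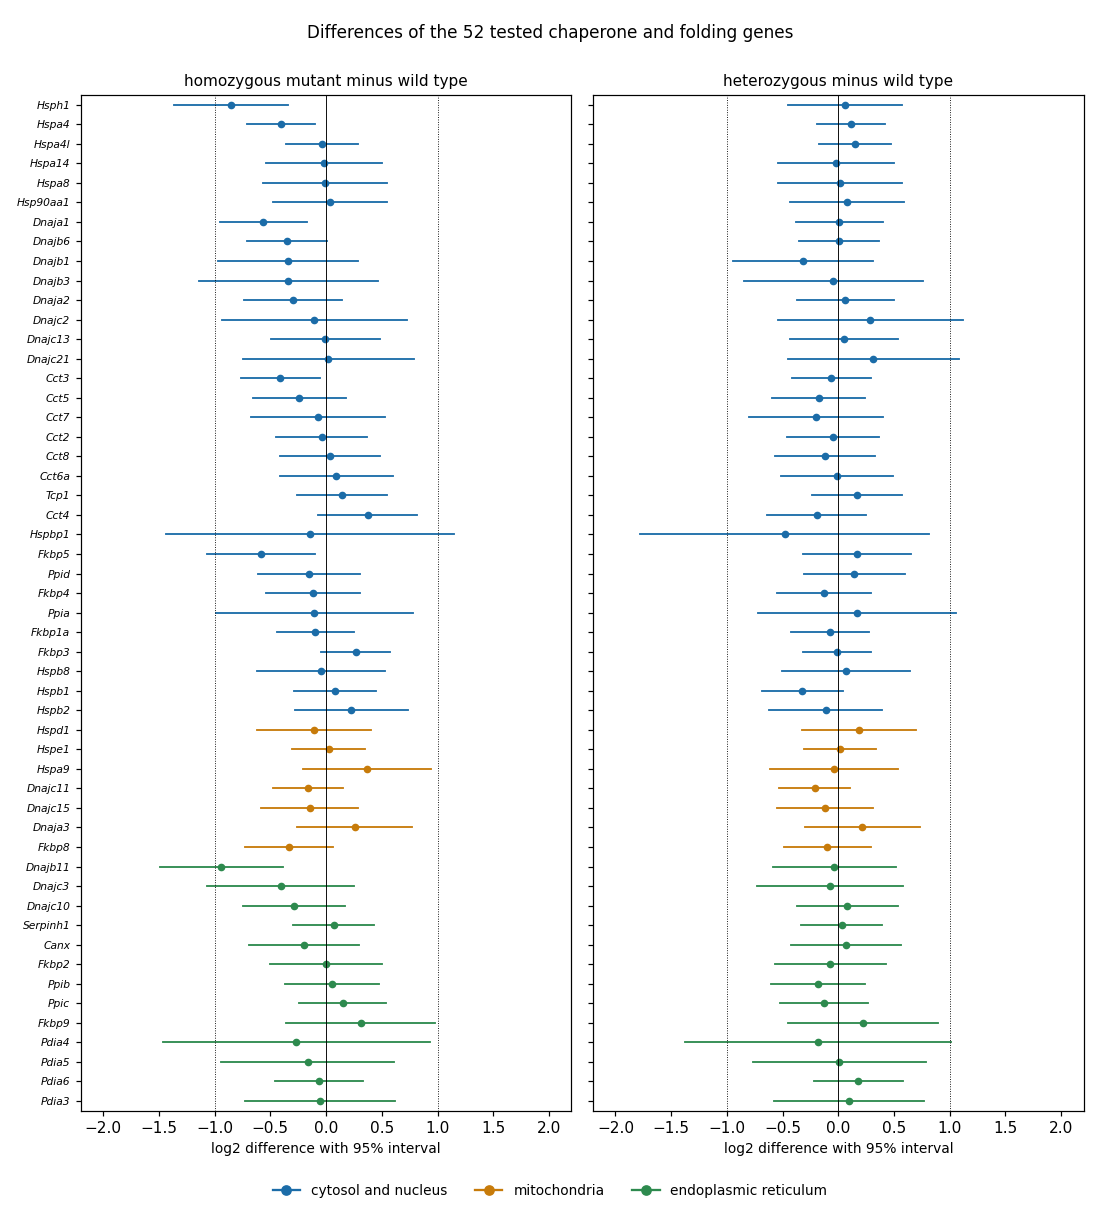
Log2 difference in intensity of the 52 tested genes, 1 row a gene, for homozygous mutant minus wild type (left) and heterozygous minus wild type (right), with points for the limma estimate, lines for its 95% interval and dotted lines at a 2-fold change; colours give the compartment. The lowest value on the left is Dnajb11 at -0.94, and 45 of 52 intervals on the left and 47 on the right stay between the dotted lines.

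The probe sets that separated the genotypes were few. All 3 homozygous mutant arrays lay below the 6 other arrays for 6 of 67 member probe sets (8.96%, against 5.65% of all tested probe sets), those of Hsph1, Hspa4, Dnaja1, Dnajb6, Fkbp5 and Dnajb11. They lay above the 6 others for 2 (2.99%, against 5.51%), those of Fkbp3 and Cct4. Against wild type alone, 12 member probe sets did not overlap (17.9%, against 15.4%), 9 of them lower in the mutant (13.4%, against 8.19%) and 3 higher (4.48%, against 7.24%). Besides those already named, Cct3, Cct5 and Fkbp8 were lower and Hspa9 was higher than in every wild type array. Heterozygous and wild type arrays did not overlap for 4 member probe sets (5.97%, against 6.37%), Pdia6 and Dnaja3 higher (2.99%, against 3.73%) and Hspb1 and Dnajc11 lower (2.99%, against 2.64%). Homozygous mutant and heterozygous arrays did not overlap for 12 (17.9%, against 22.6%), 7 lower (10.4%, against 12.6%) and 5 higher (7.46%, against 9.99%). With 3 arrays a genotype, none of these separations passed the limma test after adjustment.

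**Figure D2:**
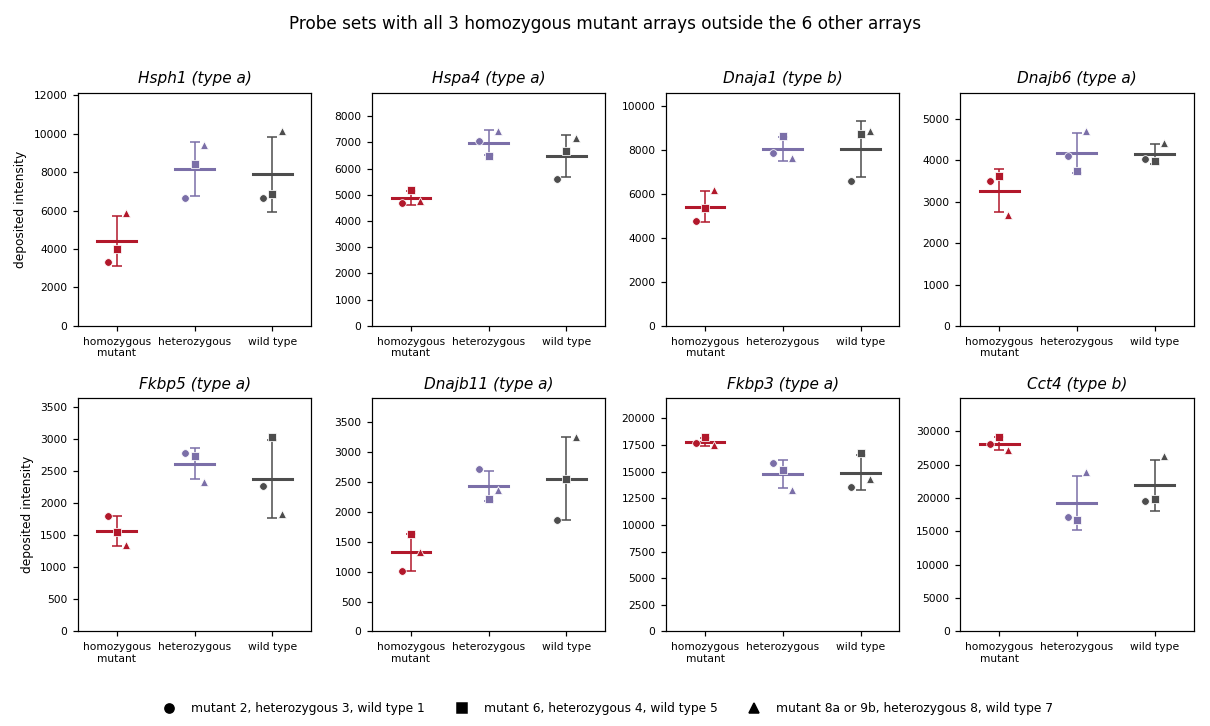
Deposited intensity of the 8 member probe sets whose 3 homozygous mutant arrays all lay outside the 6 other arrays, by genotype; points are arrays, horizontal bars the mean and whiskers 1 SD of 3 arrays, and the point shapes only tell replicates of a genotype apart. Hsph1 had 3341, 4011 and 5882 in homozygous mutant arrays, all below the lowest of the other 6, 6648 in a heterozygous array.

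The Hsp70 and Hsp110 family of the cytosol had 5 tested genes, and all 5 estimates between homozygous mutant and wild type were below 0, with a median of -0.0356. That median is the estimate of Hspa4l, which was above the floor on 0 homozygous mutant arrays and 1 wild type array. With its mutant values all raised to the floor, that estimate could not be above 0, so it adds nothing to the count. Without mutant 2 or without wild type 7, 2 of the 5 were above 0. The count takes the probe set of highest mean level, and the second probe sets of Hspa4 (0.0027) and Hspa8 (0.0032) were just above 0. The wide gap was in the Hsp110 branch, the nucleotide exchange factors. Hsph1 (Hsp105), the heat-inducible Hsp110, had intensities of 3341, 4011 and 5882 in homozygous mutant arrays, 6648, 8432 and 9394 in heterozygous arrays and 6667, 6862 and 10115 in wild type arrays. Every mutant array was below every heterozygous and wild type array, and mutant 8a came nearest to them. The log2 difference was -0.85 ± 0.233 (SE) between homozygous mutant and wild type (adjusted p = 0.15, limma, n = 3 each) and -0.91 ± 0.233 between homozygous mutant and heterozygous (adjusted p = 0.0863, limma). Without mutant arrays 8a and 9b the difference from heterozygous was -1.14 with an adjusted p of 0.0421 in limma, so the call turned on that replicate. Heterozygous and wild type arrays of Hsph1 overlapped (log2 difference 0.062, 95% interval -0.45 to 0.57).

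Hspa4 (Apg-2), a constitutive Hsp110, had 2 tested probe sets that did not tell the same story. One of them had 4702, 5172 and 4754 in homozygous mutant arrays, 7052, 6489 and 7418 in heterozygous arrays and 5620, 6669 and 7175 in wild type arrays. There the mutant arrays lay within a narrow band below all others, and the log2 difference was -0.41 ± 0.139 from wild type (adjusted p = 0.28, limma) and -0.52 from heterozygous (adjusted p = 0.101, limma). The other gave 3792, 4659 and 5537 in homozygous mutant arrays, 4767, 4740 and 5577 in heterozygous arrays and 3193, 5013 and 6076 in wild type arrays, with overlapping genotypes and a log2 difference of 0.0027 ± 0.228. The third Hsp110 gene, Hspa4l, was close to the floor, above it on 3 of 9 arrays. Its log2 difference of -0.036 between homozygous mutant and wild type is therefore held near 0 by the floor.

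The constitutive Hsp70 of the cytosol, Hspa8, which uncoats clathrin vesicles besides folding proteins, did not separate the genotypes. Its type b probe set had 34308, 58244 and 58643 in homozygous mutant arrays, 50174, 48372 and 50895 in heterozygous arrays and 41942, 52985 and 53881 in wild type arrays, a log2 difference of -0.010 ± 0.255 (95% interval -0.57 to 0.55). Mutant 2 was the lowest of the 9 and mutant 6 and 9b were the highest, so the spread within the mutant was wider than any gap between genotypes. The type a probe set had 28494, 31841 and 43927 in homozygous mutant arrays, 37707, 35639 and 34384 in heterozygous arrays and 29808, 40856 and 32510 in wild type arrays, a log2 difference of 0.0032 ± 0.198. Both carry the array maker's suffix for probe sets shared among related sequences, as do 16 of the 77 member probe sets, so signal from related genes or pseudogenes could be included. Hspa14, a ribosome-bound Hsp70, had a difference of -0.022 ± 0.238.

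The stress-inducible Hsp70 gene Hspa1a was not tested, since it exceeded the floor on 1 array only. Its intensity was 79.1, -107 and 603.4 in homozygous mutant arrays, -130.2, -67.3 and 45.8 in heterozygous arrays and -20, -194 and 120.3 in wild type arrays, where values below 0 come from background subtraction. The 1 value above the floor of 375.1 was that of mutant 8a, one of the arrays with the raised actin ratio. Hspa1l and Hspa2, which are best known from the testis, were under the floor on every array. No probe set was annotated to Hsf1 itself, to Hsp90ab1 or Hsp90b1, or to Ppif.

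Hsp90aa1, the inducible cytosolic Hsp90, did not separate the genotypes on either array type. On type a it had 24819, 25235 and 20424 in homozygous mutant arrays, 22459, 21638 and 25563 in heterozygous arrays and 19170, 23638 and 22246 in wild type arrays, and the log2 difference of homozygous mutant from wild type was 0.11 ± 0.156. On type b it had 21202, 27519 and 25887 in homozygous mutant arrays, 25896, 22412 and 28353 in heterozygous arrays and 17273, 27616 and 29353 in wild type arrays, with a difference of 0.036 ± 0.232. The genotypes overlapped in both. The 95% intervals of these differences were -0.23 to 0.46 and -0.47 to 0.55.

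The J-domain proteins, the co-chaperones that hand clients to Hsp70, were the cytosolic family with the lowest median. Among 8 tested cytosolic and nuclear genes, 7 estimates between homozygous mutant and wild type were below 0 and 1 above, with a median of -0.3181, against -0.0349 for all genes. These counts rest on the probe set of highest mean level. Other tested probe sets of Dnajb6 (0.066 and 0.098) and Dnajc13 (0.051) were above 0, and those of Dnajb1 (-0.055) and Dnajb3 (-0.28) below. The same 8 genes had a median of 0.03 between heterozygous and wild type (6 above 0, 2 below). Per replicate, relative to the wild type mean, the family's median was -0.3543, -0.1151 and -0.398 in homozygous mutant, 0.0215, -0.0211 and 0.1522 in heterozygous and -0.2333, -0.0551 and 0.2379 in wild type replicates. The mutant replicates thus overlapped the range of wild type, with wild type 1 lower than mutant 6. Without wild type 7 the median of homozygous mutant minus wild type was -0.0683, with 3 above 0 and 5 below.

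Dnaja1 (Hdj2), a main partner of Hspa8, had the lowest estimate among them. Its type b intensity was 4751, 5335 and 6168 in homozygous mutant arrays, 7840, 8630 and 7626 in heterozygous arrays and 6581, 8712 and 8831 in wild type arrays. The mutant arrays were all below the other 6, with the nearest gap between mutant 9b and wild type 1. The log2 difference was -0.57 ± 0.178 from wild type (adjusted p = 0.234, limma) and -0.57 ± 0.178 from heterozygous (adjusted p = 0.149, limma). Heterozygous and wild type differed by 0.0091 (95% interval -0.38 to 0.40).

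Dnajb6, which keeps polyglutamine and keratin proteins from aggregating, had 3 tested probe sets. The first of them had 3509, 3629 and 2675 in homozygous mutant arrays, 4102, 3741 and 4700 in heterozygous arrays and 4033, 3980 and 4421 in wild type arrays, with all mutant arrays below the rest and a log2 difference of -0.35 ± 0.164 from wild type (adjusted p = 0.455, limma). The other two probe sets of the gene gave 0.066 ± 0.302 and 0.098 ± 0.283, with the genotypes overlapping. One of these, at 1501, 1636 and 2115 in homozygous mutant arrays, 958, 1286 and 1826 in heterozygous arrays and 1569, 1329 and 2034 in wild type arrays, had one of the 4 smallest unadjusted p among members between heterozygous and wild type (log2 difference -0.31 ± 0.283, adjusted p = 1, limma). The 3 probe sets did not share a direction.

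Dnajb1 (Hsp40), the J-domain partner induced together with Hsp70 under heat, also had probe sets that differed. Its first had 2578, 2315 and 3869 in homozygous mutant arrays, 2638, 2680 and 3445 in heterozygous arrays and 4154, 2272 and 4971 in wild type arrays, in which wild type 1 and 7 were the highest arrays and wild type 5 the lowest. The log2 differences from wild type were -0.34 ± 0.287 in homozygous mutant and -0.32 ± 0.287 in heterozygous embryos, while the second probe set gave -0.055 and 0.10. Dnaja2, a further partner of Hspa8, had a difference of -0.30 ± 0.2 between homozygous mutant and wild type. The ribosome-bound Dnajc2 (-0.11 ± 0.379), the endosomal Dnajc13 (-0.0086 ± 0.223), Dnajc21 (0.020 ± 0.352) and the testis-enriched Dnajb3 (-0.34 ± 0.364) completed the family. Dnajc2 was lower in the 3 homozygous mutant arrays (1929, 2527 and 2362) than in the 3 heterozygous arrays (3255, 2734 and 2942), yet wild type 1 at 1095 was lower still. Dnajc17, and 1 of 2 probe sets of Dnajc21, were too dim to be tested.

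The promoters of the members were searched for the binding motif of heat shock factor 1, which regulates many cytosolic chaperone genes under stress. The windows are those of RefSeq (GRCm38.p6), 250 bases before to 50 after each annotated start, and 50 of the 59 genes had 1 or more (60 windows). A heat shock element of 3 units was searched on both strands: 3 units, alternately GAA and TTC and beginning with either, with 2 bases of any kind between neighbours. It was present in 6 of 60 member windows (10%) and in 198 of 32851 windows of all genes (0.603%). By gene this was 4 of 50 members (8%) and 179 of 27025 genes (0.662%). The 6 windows belong to Hsph1 and Dnajb6 in the cytosol and to Hspd1 and Hspe1 in mitochondria. Those of Hsph1 overlap, as do those of Dnajb6 and those of Hspd1 with Hspe1, so the same element was counted in more than 1 window. Those of Dnaja1, Hspa4 and Dnajb11 held no match of these letters. Neither did those of Hspb1 or of the stress-inducible Hspa1a and Dnajb1. The search allowed no departure from the letters, so a window without a match may still hold an element of other letters. One window each is shown for the 3 promoters with a match, 5′ to 3′ on the strand of the gene, with the element in capitals; a match describes the letters only and is no evidence of binding. That of Hsph1 lies at chr5:149636266-149636565 on the minus strand, that of Dnajb6 at chr5:29735648-29735947 on the plus strand and that of Hspd1 at chr1:55087883-55088182 on the minus strand.
Hsph1: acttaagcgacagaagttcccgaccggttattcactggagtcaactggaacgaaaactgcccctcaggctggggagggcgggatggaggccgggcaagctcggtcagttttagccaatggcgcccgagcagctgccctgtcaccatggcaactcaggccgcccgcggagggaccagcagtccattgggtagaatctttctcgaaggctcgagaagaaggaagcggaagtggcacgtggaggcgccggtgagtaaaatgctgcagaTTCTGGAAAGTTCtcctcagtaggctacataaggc
Dnajb6: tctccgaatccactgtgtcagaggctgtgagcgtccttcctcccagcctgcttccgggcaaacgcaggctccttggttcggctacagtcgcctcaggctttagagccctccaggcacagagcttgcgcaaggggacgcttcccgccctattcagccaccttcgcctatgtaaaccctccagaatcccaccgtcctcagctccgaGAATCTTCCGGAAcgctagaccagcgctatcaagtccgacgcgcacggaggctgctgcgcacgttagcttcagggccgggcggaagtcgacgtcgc
Hspd1: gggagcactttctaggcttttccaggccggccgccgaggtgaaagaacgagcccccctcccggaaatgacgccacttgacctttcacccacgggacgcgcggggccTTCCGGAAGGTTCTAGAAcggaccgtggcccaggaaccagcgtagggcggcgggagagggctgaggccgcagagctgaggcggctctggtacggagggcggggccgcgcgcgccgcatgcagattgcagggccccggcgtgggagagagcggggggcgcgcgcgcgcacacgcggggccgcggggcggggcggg
The element of Hsph1 began at position 16, counting the annotated start of the window shown as 1, and at position 37 from its other annotated start. That of Dnajb6 began 46 bases before the annotated start of the window shown and 127 bases before its other one. In the Hspd1 window shown there were 2 overlapping matches, 144 and 139 bases before the annotated start. Among the genes that hold the element, the log2 differences of homozygous mutant from wild type were -0.85 for Hsph1, -0.35 for Dnajb6 (on its probe set of highest mean level), -0.11 for Hspd1 and 0.022 for Hspe1.

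TRiC, the cytosolic chaperonin that folds actin and tubulin, is a double ring built from the products of Tcp1 and the Cct genes, and 8 of its subunit genes were tested. Their estimates between homozygous mutant and wild type were 4 above 0 and 4 below, with a median of -0.0016 (-0.0809 to 0.0612 with 1 replicate left out). They ran between -0.41 for Cct3 and 0.37 for Cct4. Between heterozygous and wild type 7 of the 8 were below 0, with a median of -0.0919, Cct7 lowest at -0.203 and Tcp1 the 1 above 0. Cct6b, a testis form, was under the floor on every array.

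Cct4 on type b had 28079, 29159 and 27167 in homozygous mutant arrays, 17207, 16653 and 23876 in heterozygous arrays and 19636, 19826 and 26340 in wild type arrays. The 3 mutant arrays lay closely together above the 6 others, of which heterozygous 8 and wild type 7 were the highest. The log2 difference was 0.37 ± 0.202 from wild type (adjusted p = 0.53, limma) and 0.57 ± 0.202 from heterozygous (adjusted p = 0.205, limma). Its type a probe set had 15166, 15121 and 14850 in homozygous mutant arrays, 14043, 14386 and 14128 in heterozygous arrays and 11916, 14996 and 14763 in wild type arrays, a log2 difference of 0.12 ± 0.135 from wild type. There the mutant arrays were again above all heterozygous arrays, but mutant 8a was not above wild type 5.

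Cct3 ran the other way on 1 of its 2 probe sets, with 3651, 4216 and 3677 in homozygous mutant arrays, 5489, 5134 and 4145 in heterozygous arrays and 4607, 5964 and 4852 in wild type arrays. The log2 difference from wild type was -0.41 ± 0.162 (adjusted p = 0.352, limma), and the mutant arrays were below all wild type arrays, while mutant 6 was above heterozygous 8. The other probe set had 2805, 2739 and 3472 in homozygous mutant arrays, 2767, 3228 and 3206 in heterozygous arrays and 3054, 3077 and 2342 in wild type arrays, with a difference of 0.092 ± 0.176. Subunits of 1 ring thus gave opposite signs, and probe sets of 1 subunit did too. Both probe sets of Cct3 and both of Cct4 carry the suffix for shared sequences, so related sequences could be included in these values.

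The other subunits overlapped between homozygous mutant and heterozygous arrays. Tcp1 had 12742, 18618 and 15819 in homozygous mutant arrays, 16264, 16229 and 14996 in heterozygous arrays and 11734, 17581 and 13568 in wild type arrays. Cct2 had 29729, 31871 and 31805 in homozygous mutant arrays, 32242, 32288 and 28346 in heterozygous arrays and 28925, 37649 and 29944 in wild type arrays. Cct8 had 15758, 17509 and 20199 in homozygous mutant arrays, 16040, 15872 and 15857 in heterozygous arrays and 13366, 17479 and 22187 in wild type arrays. Homozygous mutant and wild type arrays overlapped in all of these, and their log2 differences of homozygous mutant from wild type were 0.14 ± 0.184, -0.038 ± 0.186 and 0.035 ± 0.203.

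Cct5 had 19469, 13768 and 19562 in homozygous mutant arrays, 15937, 18615 and 20189 in heterozygous arrays and 19805, 20728 and 21011 in wild type arrays, with all mutant arrays below the lowest wild type array, by a margin of only 19562 to 19805 at the nearest pair. Its log2 difference was -0.24 ± 0.189. Cct6a had 16646, 20071 and 20420 in homozygous mutant arrays, 21677, 20851 and 12164 in heterozygous arrays and 17305, 19395 and 16760 in wild type arrays, in which heterozygous 8 stood alone at the bottom, and Cct7 had 22725, 16726 and 36601 in homozygous mutant arrays, 19363, 20453 and 26738 in heterozygous arrays and 25975, 22031 and 28226 in wild type arrays, in which mutant 9b stood alone at the top. Their log2 differences of homozygous mutant from wild type were 0.093 ± 0.229 and -0.072 ± 0.273.

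**Figure D3:**
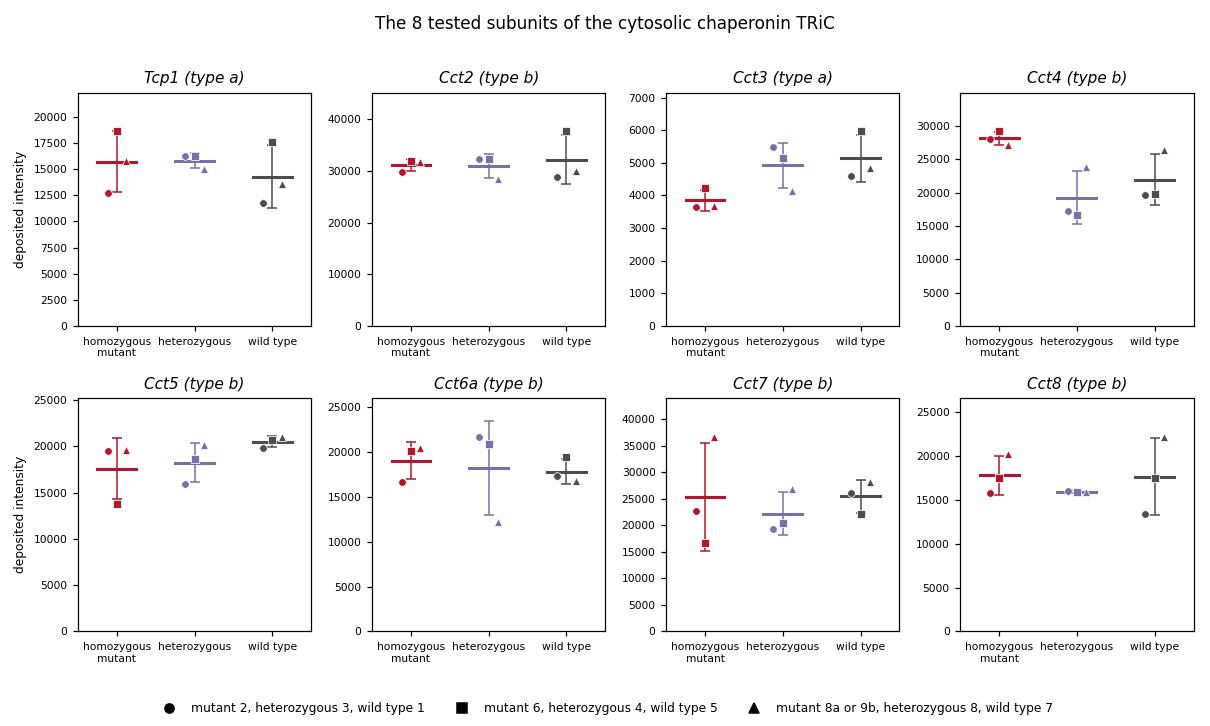
Deposited intensity of the 8 tested TRiC subunit genes, each on its probe set of highest mean level, by genotype; points are arrays, horizontal bars the mean and whiskers 1 SD of 3 arrays, and point shapes only tell replicates apart. In the Cct4 panel the mutant arrays, 28079, 29159 and 27167, lie above the other 6, and in the Cct3 panel, 3651, 4216 and 3677, below all wild type arrays.

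Small heat shock proteins hold unfolded proteins without ATP, and several are strong in muscle. Hspb1 (Hsp27) had 9001, 10567 and 12627 in homozygous mutant arrays, 8527, 7070 and 8610 in heterozygous arrays and 9512, 11750 and 9120 in wild type arrays. Heterozygous arrays were all below the wild type and homozygous mutant arrays. Hspb1 had the smallest unadjusted p of any member between heterozygous and wild type (log2 difference -0.32 ± 0.166, adjusted p = 1, limma), and homozygous mutant exceeded heterozygous by 0.40 ± 0.166 (adjusted p = 0.269, limma). From wild type the homozygous mutant differed by 0.079 ± 0.166, so the heterozygous arrays stood apart from both. Hspb2 (0.23 ± 0.232) and Hspb8 (-0.048 ± 0.262), a partner of the co-chaperone Bag3, overlapped between these genotypes.

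Peptidyl-prolyl isomerases of the cytosol and nucleus had 6 tested genes, 5 of them below 0 between homozygous mutant and wild type, with a median of -0.112, which was -0.2135 without mutant 8a and 9b, -0.2363 without wild type 1 and -0.0684 without wild type 5. Fkbp5 (Fkbp51), an Hsp90 co-chaperone that restrains the glucocorticoid receptor, had 1801, 1544 and 1343 in homozygous mutant arrays, 2777, 2727 and 2334 in heterozygous arrays and 2261, 3028 and 1827 in wild type arrays. All mutant arrays were below the rest, by a narrow gap between mutant 2 and wild type 7. The log2 difference was -0.58 ± 0.221 from wild type (adjusted p = 0.342, limma) and -0.75 ± 0.221 from heterozygous (adjusted p = 0.131, limma). Fkbp4 (Fkbp52), its relative with the opposite action on the receptor, had 22117, 18795 and 28328 in homozygous mutant arrays, 20831, 22287 and 24875 in heterozygous arrays and 25060, 24424 and 24652 in wild type arrays on type b. Its genotypes overlapped, with a difference of -0.12 ± 0.192.

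Fkbp3, a nuclear isomerase, was the member of this family with mutant arrays above all others. It had 17698, 18258 and 17523 in homozygous mutant arrays, 15822, 15135 and 13276 in heterozygous arrays and 13601, 16777 and 14340 in wild type arrays, and the log2 difference from wild type was 0.26 ± 0.14 (adjusted p = 0.52, limma). The 3 mutant arrays agreed to within a few percent of each other, and the gap to the nearest array, wild type 5, was small. Fkbp1a (Fkbp12), which steadies the ryanodine receptor of heart muscle, had 15716, 14304 and 16725 in homozygous mutant arrays, 15608, 17200 and 14686 in heterozygous arrays and 15888, 16202 and 17874 in wild type arrays on one probe set, with a difference of -0.097 ± 0.158. Its second gave -0.20 ± 0.181, again with overlap.

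Ppia (cyclophilin A) was among the most variable members, with 37076, 70994 and 92794 in homozygous mutant arrays, 78244, 100278 and 54532 in heterozygous arrays and 48361, 104081 and 60350 in wild type arrays. Each genotype held both low and high arrays, and the log2 difference of homozygous mutant from wild type was -0.10 with a 95% interval of -0.99 to 0.78. Differences approaching 2-fold for Ppia were therefore not detectable here. Its probe set also carries the suffix for shared sequences. Ppid (cyclophilin 40), a further Hsp90 co-chaperone, had a difference of -0.15 ± 0.209. Hspbp1, an exchange factor for Hsp70 that the Hspb prefix took in, had 1004, 1036 and 634 in homozygous mutant arrays, 220.4, 659 and 1324 in heterozygous arrays and 2149, 218 and 1108 in wild type arrays, a very wide spread within wild type, and no difference can be read from it (95% interval -1.44 to 1.15).

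In mitochondria, Hspd1 (Hsp60) forms the folding barrel and Hspe1 (Hsp10) its lid. Their genes lie head to head, and the RefSeq windows of the pair share 285 bases (chr1:55087898-55088182, GRCm38.p6) on opposite strands, so the elements shown in the Hspd1 window are also those of Hspe1, 89 and 84 bases before its start. Hspd1 had 29392, 35972 and 43009 in homozygous mutant arrays, 45917, 47326 and 38152 in heterozygous arrays and 30797, 45512 and 40460 in wild type arrays on type b, and Hspe1 had 7363, 7283 and 9102 in homozygous mutant arrays, 7283, 7367 and 8964 in heterozygous arrays and 7291, 7508 and 8510 in wild type arrays on type a. The genotypes overlapped in both, and the pattern over replicates was not shared: Hspe1 was highest in mutant 8a, heterozygous 8 and wild type 7, Hspd1 in mutant 9b, heterozygous 4 and wild type 5. The log2 differences of homozygous mutant from wild type were -0.11 ± 0.232 for Hspd1 and 0.022 ± 0.148 for Hspe1. For Hspe1 the 95% interval of -0.30 to 0.35 was among the narrower ones.

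Hspa9 (mortalin), the Hsp70 that pulls proteins into the mitochondrial matrix, had 4308, 3988 and 4064 in homozygous mutant arrays, 2561, 2367 and 4940 in heterozygous arrays and 3198, 2564 and 3963 in wild type arrays. The mutant arrays were all above wild type, with 3988 against 3963 at the nearest pair, while heterozygous 8 was above them all. The log2 difference was 0.37 ± 0.262 (adjusted p = 0.667, limma). Dnaja3 (Tid1), its J-domain partner, had 1229, 1428 and 1927 in homozygous mutant arrays, 1388, 1629 and 1375 in heterozygous arrays and 1154, 1340 and 1285 in wild type arrays and differences of 0.26 ± 0.235 in homozygous mutant and 0.22 ± 0.235 in heterozygous embryos, both from wild type. Heterozygous arrays of Dnaja3 all exceeded wild type.

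On the outer mitochondrial membrane, Fkbp8, an inhibitor of cell death that anchors Bcl-2, had 1727, 2064 and 2224 in homozygous mutant arrays, 2142, 2435 and 2470 in heterozygous arrays and 2620, 2225 and 2709 in wild type arrays. All mutant arrays were equal to or below the lowest wild type array at the printed precision, and the log2 difference was -0.33 ± 0.18 (adjusted p = 0.529, limma). Dnajc11, of the complex that shapes the cristae, was near the floor, with 156, 424 and 253 in homozygous mutant arrays, 261, 369 and 381 in heterozygous arrays and 414, 428 and 471 in wild type arrays. It was above the floor on all 3 wild type arrays and on 2 others, and its log2 differences, on values held at the floor, were -0.16 ± 0.144 in homozygous mutant and -0.21 ± 0.144 in heterozygous embryos (adjusted p = 1, limma, for the second). Dnajc15, which assists import at the inner membrane, had a difference of -0.15 ± 0.199 between homozygous mutant and wild type.

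In the ER, the 3 tested J-domain genes were all below 0 between homozygous mutant and wild type, with a median of -0.4079. That median rested on single replicates: it was -0.1549 without mutant 8a and 9b, -0.2481 without wild type 7 and -0.6125 without mutant 6. Relative to the wild type mean it was -0.3111, 0.0013 and -0.9126 in homozygous mutant, 0.1248, -0.1025 and -0.015 in heterozygous and -0.3031, 0.0382 and 0.3855 in wild type replicates. Dnajb11 (ERdj3), a co-chaperone that binds nascent secreted proteins, had the lowest estimate of all 52 genes. Its intensity was 1009, 1636 and 1324 in homozygous mutant arrays, 2718, 2226 and 2373 in heterozygous arrays and 1858, 2559 and 3256 in wild type arrays. Every mutant array was below every other array, and mutant 6 and wild type 1 were the nearest. The log2 difference was -0.94 ± 0.252 from wild type (adjusted p = 0.139, limma) and -0.91 ± 0.252 from heterozygous (adjusted p = 0.111, limma). Heterozygous and wild type differed by -0.036 (95% interval -0.59 to 0.52).

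Dnajc3 (p58IPK), which also dampens the kinase of the unfolded protein response, had 1470, 1825 and 968 in homozygous mutant arrays, 1643, 1699 and 1863 in heterozygous arrays and 1478, 1499 and 2737 in wild type arrays on type a. Wild type 7 was far above the other arrays and mutant 8a far below, and the log2 difference of homozygous mutant from wild type was -0.41 ± 0.3. On type b it was -0.24 ± 0.253, with mutant 9b again the lowest array. Dnajc10 (ERdj5), a reductase that unpicks wrong disulfide bonds, had 2005, 2461 and 1604 in homozygous mutant arrays, 2662, 2661 and 2407 in heterozygous arrays and 1990, 2814 and 2570 in wild type arrays and a difference of -0.29 ± 0.208. For these genes the genotypes overlapped. Without mutant 8a and 9b the estimates were -0.15 for Dnajc3 on type a and -0.13 for Dnajc10, and that of Dnajb11 was -0.96. Dnajb9 and Dnajc1, on 2 probe sets each, were under the floor on every array.

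The ER stress element, to which the transcription factors of the unfolded protein response bind, was searched on both strands as CCAAT and CCACG with 9 bases of any kind between them. It stood in 3 of 60 member windows (5%), those of Canx, Dnajc3 and Pdia6, and in 39 of 32851 windows of all genes (0.119%). The windows of Dnajb11 and Pdia4 held no match of these letters. Those of Dnajc3 (chr14:118937682-118937981, plus strand) and Canx (chr11:50325624-50325923, minus strand) are shown, as examples in which the deposited values did not separate the genotypes, with the match in capitals (RefSeq, GRCm38.p6).
Dnajc3: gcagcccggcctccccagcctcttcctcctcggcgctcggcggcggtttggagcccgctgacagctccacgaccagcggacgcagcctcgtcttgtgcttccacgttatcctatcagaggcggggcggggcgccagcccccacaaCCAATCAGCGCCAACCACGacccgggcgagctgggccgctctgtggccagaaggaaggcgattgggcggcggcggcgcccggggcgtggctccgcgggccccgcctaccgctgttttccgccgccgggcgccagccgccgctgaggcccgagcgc
Canx: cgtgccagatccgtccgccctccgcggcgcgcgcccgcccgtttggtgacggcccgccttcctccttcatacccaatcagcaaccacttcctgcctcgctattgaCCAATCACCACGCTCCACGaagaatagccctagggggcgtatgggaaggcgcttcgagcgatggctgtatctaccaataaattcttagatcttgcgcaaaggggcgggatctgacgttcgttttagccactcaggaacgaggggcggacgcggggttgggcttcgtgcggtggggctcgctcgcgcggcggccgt
Canx (calnexin), the membrane lectin that retains glycoproteins until they fold, had 9462, 10647 and 5372 in homozygous mutant arrays, 10465, 9934 and 9098 in heterozygous arrays and 8143, 10430 and 9620 in wild type arrays on its probe set of highest mean level. Mutant 8a was the lowest of the 9, and the log2 difference was -0.20 ± 0.225. Without mutant 8a and 9b the estimate was 0.10. The type b probe set had 4848, 5471 and 1981 in homozygous mutant arrays, 5079, 4592 and 6467 in heterozygous arrays and 5171, 5996 and 5780 in wild type arrays, with mutant 9b the lowest and a difference of -0.59 ± 0.329, and the third gave -0.28 ± 0.321. In each of the 3 probe sets the genotypes overlapped.

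The protein disulfide isomerases, which form and exchange disulfide bonds, had 4 tested genes, all below 0 between homozygous mutant and wild type (median -0.1139). Without mutant 8a and 9b 3 of the 4 were above 0, with a median of 0.1886, and without wild type 5 the median was 0.0165. In Pdia4 and Pdia3, arrays of 1 genotype differed from each other more than the genotype means did. Pdia4 (ERp72) had 2682, 2199 and 856 in homozygous mutant arrays, 2385, 2766 and 913 in heterozygous arrays and 2550, 3341 and 1033 in wild type arrays. Pdia3 (ERp57), the partner of calnexin, had 9621, 6632 and 4107 in homozygous mutant arrays, 8827, 6814 and 5960 in heterozygous arrays and 7914, 8234 and 4490 in wild type arrays. In both genes mutant 8a, heterozygous 8 and wild type 7 were the lowest of their genotypes. Pdia5 did not share this in wild type, where wild type 7 was the highest array, and in Pdia6 wild type 1 and 7 were nearly equal. Relative to the wild type mean, the median of the 4 genes was 0.22, 0.045 and -0.58 in homozygous mutant, 0.31, 0.33 and -0.50 in heterozygous and 0.12, 0.22 and -0.29 in wild type replicates.

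The log2 difference of homozygous mutant from wild type was -0.27 for Pdia4 with a 95% interval of -1.46 to 0.93, and -0.053 for Pdia3 with an interval of -0.73 to 0.62. A 2-fold difference in Pdia4 was thus not detectable. Pdia6 (P5) had 3825, 4316 and 2651 in homozygous mutant arrays, 4326, 4323 and 3875 in heterozygous arrays and 3641, 3758 and 3641 in wild type arrays, with heterozygous arrays above all wild type arrays and a difference of 0.18 ± 0.182 between them (adjusted p = 1, limma). Between homozygous mutant and wild type it was -0.062 ± 0.182. Without mutant 8a and 9b the estimates were 0.23 for Pdia4, 0.27 for Pdia3 and 0.14 for Pdia6, so their sign turned, and that of Pdia5 was -0.060. Pdia5 had 1450, 1215 and 1066 in homozygous mutant arrays, 1808, 1932 and 774 in heterozygous arrays and 1042, 1520 and 1674 in wild type arrays, with a difference of -0.17 ± 0.353.

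Serpinh1 (Hsp47), the chaperone of procollagen, did not separate the genotypes. It had 14750, 16502 and 15232 in homozygous mutant arrays, 14440, 13973 and 17038 in heterozygous arrays and 16690, 13527 and 14309 in wild type arrays on type b and 11333, 13067 and 11948 in homozygous mutant arrays, 12423, 12944 and 12303 in heterozygous arrays and 11089, 14279 and 9649 in wild type arrays on type a. The log2 differences of homozygous mutant from wild type were 0.066 ± 0.165 and 0.071 ± 0.157. Ppib (cyclophilin B), which works with Serpinh1 on collagen, had 17408, 14815 and 12609 in homozygous mutant arrays, 13140, 12970 and 11799 in heterozygous arrays and 18152, 14779 and 10920 in wild type arrays, again with mutant 8a, heterozygous 8 and wild type 7 lowest, and a difference of 0.050 ± 0.192. Ppic had a difference of 0.15 ± 0.18, and its mutant arrays (2401, 2601 and 2150) exceeded the heterozygous ones (1967, 1933 and 1992). Fkbp2 (-0.0045 ± 0.229) and Fkbp9 (0.31 ± 0.305) overlapped between homozygous mutant and wild type.

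Replicates with the same standing in their genotypes recurred across the members. This pattern was noticed in the values and is a description without a test. On type a, heterozygous 8 and wild type 7 were both the highest of their genotypes for 15 of 47 member probe sets (31.9%, against 19% of all tested probe sets of that type) and both the lowest for 8 (17%, against 23.8%). The 8 were those of Pdia3, Pdia4, Pdia6, Canx, Serpinh1, Ppib, Hspb8 and Fkbp5, 6 of them genes of the ER. The 15 included Hsph1, both probe sets of Hspa4, Dnaja2, Hspa14, Hspa9 and Hspe1, and the ER genes Dnajc3, Ppic and Fkbp2. On type b both were highest for 8 of 20 (40%, against 20.8%), among them Hspa8, Hsp90aa1, Cct4, Cct5, Cct7 and the ER gene Fkbp9. There both were lowest for 2 (10%, against 20.4%), Cct6a and the ER gene Dnajc3.

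Mutant 8a with 9b, heterozygous 8 and wild type 7 all stood at the same end of their genotypes in 1 of the 6 marker lists. The summed intensity of 4 mesenchyme genes (Col1a1, Col1a2, Col3a1 and Vim) was 42890, 41630 and 21690 in homozygous mutant, 36770, 42290 and 27560 in heterozygous and 37950, 33920 and 29950 in wild type replicates. It was lowest in 8a with 9b, in heterozygous 8 and in wild type 7, as were Pdia3, Pdia4 and Ppib. Heterozygous 8 and wild type 7 were also both the lowest for primitive red cells, at 174500 and 149800. The same held for liver bud or visceral endoderm, at 1968 and 2266. Mutant 8a with 9b was the highest mutant replicate for red cells (255100) and the middle one for liver bud (2418). The sum of 5 heart muscle genes (Actc1, Myl4, Myl2, Tnnc1 and Myh6) was 79710, 121700 and 177100 in homozygous mutant, 108500, 87460 and 120000 in heterozygous and 99940, 138800 and 137800 in wild type replicates. It was highest in 8a with 9b and in heterozygous 8, while wild type 7 was just under wild type 5. Mutant 8a and 9b, heterozygous 8 and wild type 7 also had the highest 3′ to 5′ signal ratio of actin in their genotypes. It was 2.5, 1.2 and 1.41 on type a and 2.28, 1.2 and 1.4 on type b. That of Gapdh was highest in them too, with 1.33, 0.961 and 0.929 on type a. On type b it was 1.21, 0.989 and 1, with a narrow margin in heterozygous arrays, 0.989 to 0.988. The part of these lists or ratios in the members' values was not tested.

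**Figure D4:**
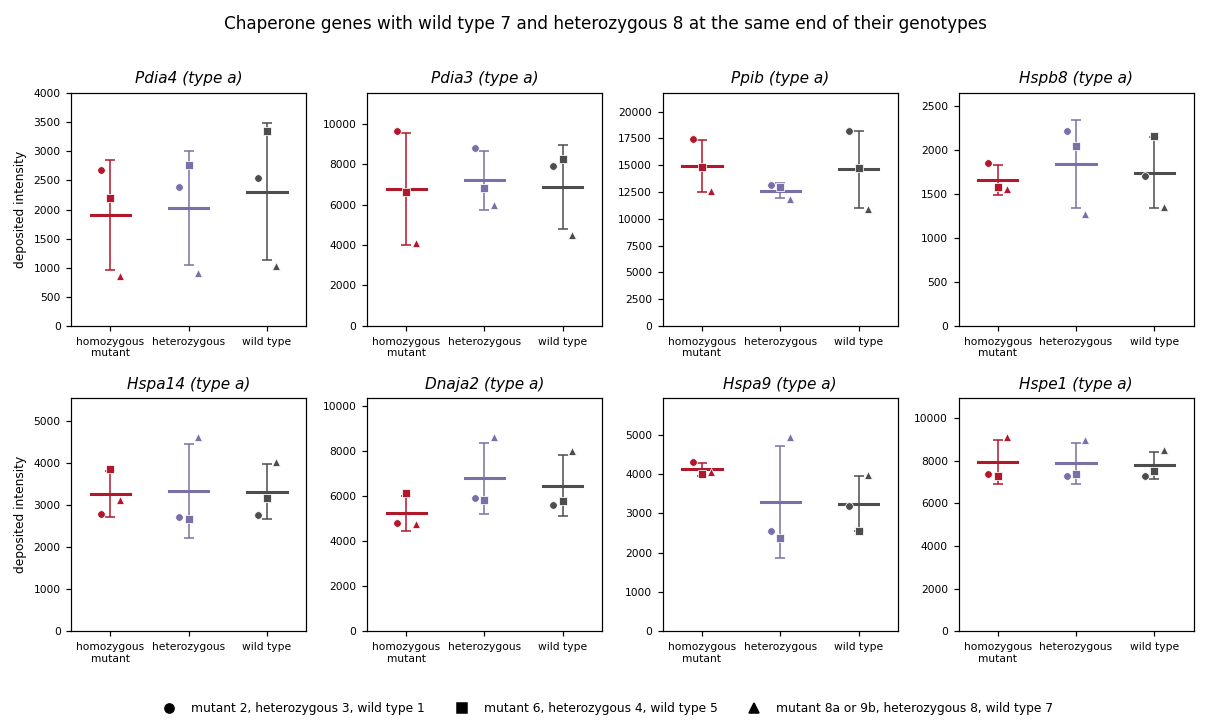
Deposited intensity of 8 member genes chosen, after their values were seen, because heterozygous 8 and wild type 7 stood at the same end of their genotypes; points are arrays (triangles for mutant 8a, heterozygous 8 and wild type 7), bars the mean and whiskers 1 SD of 3 arrays. Pdia4 was 856.2 in mutant 8a, 912.6 in heterozygous 8 and 1033 in wild type 7, each the lowest array of its genotype.

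The spread within genotypes, as the SD of log2 intensity pooled over the 3 genotypes, had a median of 0.252 over the 67 member probe sets and of 0.304 over all 6935. It was widest for Hspbp1 (0.932), Pdia4 (0.878), Dnajc2 (0.592) and Ppia (0.572), and 0.081 at the narrowest. Among genes whose mutant arrays lay below all others it was 0.342 for Hsph1, 0.321 for Dnajb11, 0.257 for Fkbp5 and 0.184 for Dnaja1.

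**Figure D5:**
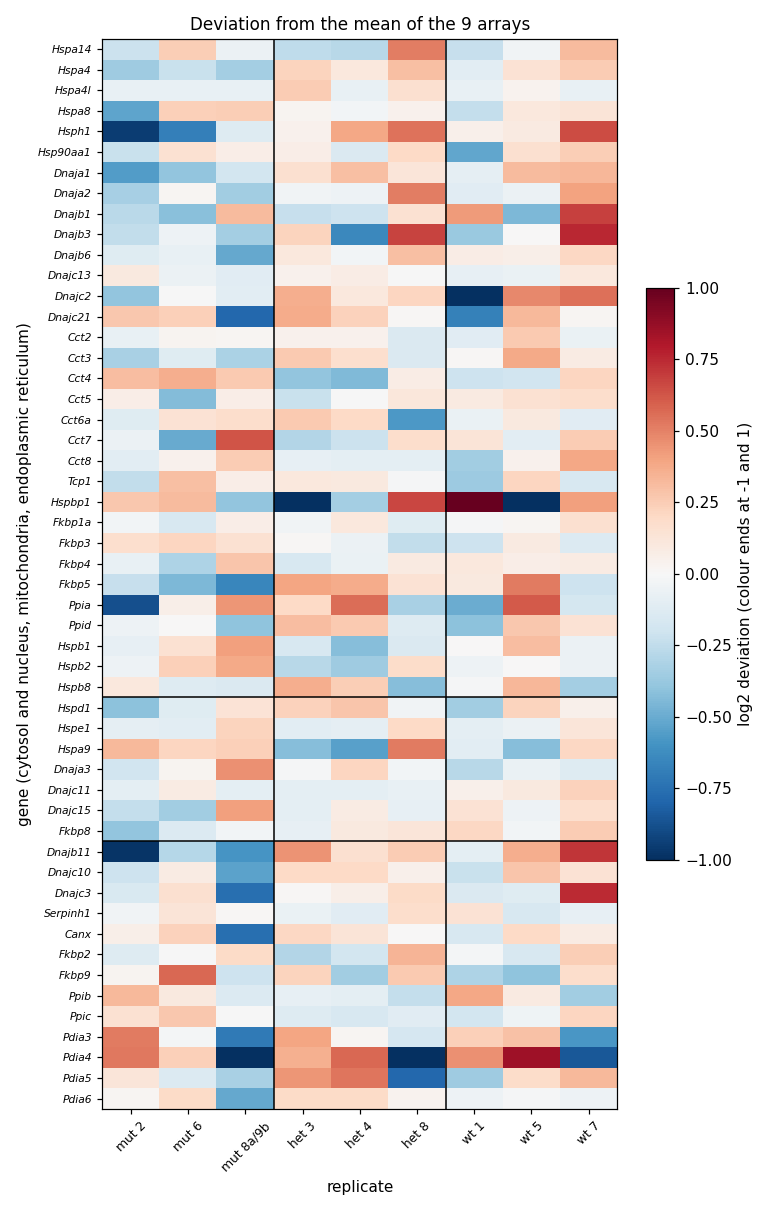
Log2 intensity of the 52 tested genes in each replicate minus the gene's mean over the 9 arrays, with genes in rows grouped by compartment and family and replicates in columns grouped by genotype (mut, homozygous mutant); red is above and blue below the mean, and the colours end at 1 and -1. Hsph1, Dnaja1 and Dnajb11 are blue in all 3 mutant columns, while Pdia4 is darkest in mutant 8a and heterozygous 8.

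Genes that work beside the members were read in the same fit. Of 44 listed cytosolic co-chaperones, prefoldin subunits and related folding factors, 20 were on the arrays and 17 tested. None passed an adjusted p of 0.05 in limma between homozygous mutant and wild type, and 0 of 17 had an unadjusted p under 0.05, against 11.5% of all 3909 tested genes. The median log2 difference was -0.2449, with 6 above 0 and 11 below, against -0.0349 for all genes. For heterozygous minus wild type it was -0.1264 (4 above 0, 13 below), against 0.0194 for all genes. For homozygous mutant minus heterozygous it was 0.0238 (9 above 0, 8 below), against -0.0689 for all genes. Lowest of the 11 below 0 between homozygous mutant and wild type was Tomm34 (-0.58 ± 0.387), then Bag1 (-0.46 ± 0.296), Bag6 (-0.43 ± 0.222) and Tbcb (-0.43 ± 0.224). The 11 also included Chordc1, an Hsp90 co-chaperone (-0.42 ± 0.276), and Stip1, which links Hsp70 and Hsp90 (-0.33 ± 0.182). Cdc37, which brings kinases to Hsp90 (-0.28 ± 0.202), was also below 0. The 6 above 0 included Naca (0.29 ± 0.189), Tbca (0.27 ± 0.177) and Sugt1 (0.10 ± 0.23).

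Of 32 listed partners of mitochondrial import and proteolysis, 19 were on the arrays and 17 tested. None passed the adjusted threshold and 3 of 17 (17.6%, against 11.5% of all tested genes) had an unadjusted p under 0.05, all lower in the mutant. These were Timm10 (-0.62 ± 0.247, adjusted p = 0.359, limma) and Timm9 (-0.37 ± 0.165), which escort membrane proteins between the 2 membranes, and Grpel1 (-0.39 ± 0.174), the exchange factor of Hspa9. The list's median was -0.1233, with 6 above 0 and 11 below, against -0.0349 for all genes. For heterozygous minus wild type it was -0.0833, against 0.0194 for all genes. For homozygous mutant minus heterozygous it was -0.0499, against -0.0689 for all genes.

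Of 58 listed genes of ER folding and the unfolded protein response, 42 were on the arrays and 36 tested, with a median of -0.0313 (17 above 0, 19 below), against -0.0349 for all genes. None passed the adjusted threshold in limma and 5 of 36 (13.9%) had an unadjusted p under 0.05, a share close to the 11.5% of all tested genes. The transcription factor Atf4, whose translation is favoured under ER and amino acid stress, had 15490 ± 1250 in homozygous mutant, 10870 ± 366 in heterozygous and 10270 ± 1670 in wild type arrays (SD, n = 3 each), a log2 difference of 0.60 ± 0.150 from wild type (adjusted p = 0.117, limma). P4hb, the classical protein disulfide isomerase, had 9254 ± 1320 in homozygous mutant, 5595 ± 1340 in heterozygous and 6381 ± 684 in wild type arrays (SD, n = 3 each), a log2 difference of 0.53 ± 0.209 (adjusted p = 0.357, limma). Sdf2 also had a positive log2 difference (0.53 ± 0.216), and the calcium-binding Creld2 (-0.61 ± 0.229) and Rcn2 (-0.54 ± 0.208) had negative ones. Xbp1, a transcription factor of the response, had a difference of -0.095 ± 0.29, and Calr (calreticulin), the soluble relative of calnexin, of -0.31 ± 0.2.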

How the data were processed

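The authors' deposited values are intensity per probe set, 1 table for each of 2 array types, and per the labels they come from total RNA of the middle part of embryos at embryonic day 9.5. What array software, background correction and scaling the authors used was not given in the sources used here. The deposited intensity was read as linear and background-subtracted, since values below 0 occur. Mean intensity after trimming 2% differed between arrays by 0.878% on type a and 0.681% on type b, so the authors' scaling was kept. Control probe sets (61 on each type) were left out, which left 13057. The platform annotation named the genes, and its identifiers were looked up in RefSeq for current symbols (4768 of 4777 found for type a, 1754 of 1760 for type b). A single symbol was given to 7542 probe sets, several to 224 and none to 5291; 1 probe set naming a J-domain gene with its pseudogene was therefore not a member. Heterozygous 8 of type b lacks 499 values, none of them of a member.

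The noise SD, 187.5 on type a and 261.5 on type b, was taken from the values below 0, and the floor was 2 times that. Lower values were raised to the floor, and log2 of the deposited intensity was fitted by limma 3.58.1 under R 4.3.3 (lmFit, then a trended eBayes, two-sided tests, 1 fit for the 9 arrays of each type, Benjamini-Hochberg over both types together). The fit was tested on simulated data. Only 3 arrays a genotype limit the precision. Genes with several probe sets are represented in medians by that of highest mean level. Members given with every value were those with the smallest unadjusted p (8 for homozygous mutant with wild type, 4 for each other comparison) and a list of main chaperones; other genes given this way were chosen after their values were seen. Members and lists were chosen with earlier results of these data known. Alternatives changed the floor, filter, log scale, scaling, trend, arrays in the fit and the probe set of a gene, or left out each replicate.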

Additional observations from a re-analysis of the deposited data

How the results depend on the processing

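The count of members past the adjusted threshold in limma was 0 in all 16 alternatives between homozygous mutant and wild type and between heterozygous and wild type. Between homozygous mutant and heterozygous it became 1, Hsph1, without mutant 8a and 9b, and was 0 in the other alternatives. Leaving out 1 replicate at a time gave medians between homozygous mutant and wild type of -0.1491 to -0.0353 in the cytosol, -0.1328 to 0.0339 in mitochondria and -0.282 to 0.1025 in the ER. Between heterozygous and wild type they were -0.1044 to 0.057, -0.1845 to 0.0827 and -0.0358 to 0.1128, and between homozygous mutant and heterozygous -0.1492 to -4e-04, -0.1399 to 0.0637 and -0.3016 to 0.0321 (in the cytosol -0.124 without mutant 6). The mitochondrial and ER medians thus changed sign in each comparison when single replicates were left out, and the cytosolic median, -0.0016 between heterozygous and wild type, did so without wild type 5 or wild type 7; the ER median of homozygous mutant minus wild type did so without mutant 8a and 9b, and the mitochondrial median of heterozygous minus wild type without heterozygous 3, heterozygous 4 or wild type 7. The estimate of homozygous mutant minus wild type ran over the alternatives from -1.08 to -0.66 for Hsph1 (adjusted p 0.0574 to 0.437), -1.15 to -0.75 for Dnajb11 (0.0949 to 0.425), -0.70 to -0.47 for Dnaja1 (0.154 to 0.527) and -0.51 to -0.33 for Hspa4 (0.174 to 0.592). Over all probe sets the number called between homozygous mutant and wild type was 48, but 7 with only the compared genotypes in the fit, 8 without mutant 2, 14 without mutant 6 or wild type 5 and 15 without wild type 7. Between homozygous mutant and heterozygous it was 80, but 42 with only the compared genotypes, 40 without heterozygous 8, 23 without mutant 2, 16 without heterozygous 4 and 15 without heterozygous 3. No paired analysis was possible because the replicate numbers of the genotypes do not match (1, 5 and 7, 3, 4 and 8, and 2, 6 and 8 or 9), so fewer than 2 are shared. The small number of arrays and the unknown scaling limit all of these values.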
